A study of Mus musculus with 4 samples.

Results

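The 47 genes described here act in G2 phase and mitosis. They were taken by name from a fixed list out of 31053 genes in the count matrices, and all 47 were found. The list was chosen with earlier results of these data known, so its contrasts with all genes are a description. Their levels were read in splenic B220+IgD- cells, profiled 1 cell at a time in droplets. The mice had received sheep red blood cells 10 days earlier to raise a germinal center (GC) reaction. All mice carried Cγ1-cre, whose recombinase is driven from the immunoglobulin γ1 constant region locus and is active in B cells activated toward the GC reaction, so cells outside that lineage keep intact alleles. The WT mouse carried no floxed allele, the C mouse was Crebbp fl/+, the K mouse was Kmt2d fl/+ and the CK mouse was Crebbp fl/+ and Kmt2d fl/+. The study describes them as female mice of 8 weeks on a C57BL/6J background. Each genotype was 1 mouse and 1 library, so genotype and library cannot be told apart, no test between genotypes was run, and every interval is a 95% interval that covers counting error only.

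Cells enter mitosis when cyclin B and Cdk1 become active, condensins and topoisomerase II shape the chromosomes, kinetochores attach them to spindle microtubules, and the anaphase-promoting complex then marks mitotic proteins for destruction. Genes of this program share control by the DREAM and MuvB complexes, which silence them in quiescence and activate them with B-Myb and FoxM1 late in the cycle. In the GC, division takes place mainly among centroblasts (CB) of the dark zone, while centrocytes (CC) of the light zone are mostly between divisions and are selected for exit or for a return to the dark zone.

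Promoter sequences are shown first because 45 of the 47 genes had their highest mean level over libraries in the same subtype, CB, and most of their promoters hold the same short motifs. RefSeq promoters on GRCm38.p6, covering 250 bases before and 50 bases after a start site, were matched by symbol for 40 of 47 genes. The letters TTTGAA or TTCGAA, on either strand, are those of the cell cycle genes homology region (CHR), a contact site of the MuvB core. At least 1 of them lay in the promoter of 30 of 40 members (75%), against 21.7% of 27025 genes with a promoter and 16.8% of 7791 genes with at least 100 UMIs in GC B cells that are not members. Among all 32851 promoters the share was 19.2%. The letters CCAAT on either strand, a contact site of NF-Y, lay in 30 of 40 members (75%), against 41.1% of genes and 37.4% of promoters. Both kinds were present in 26 of 40 members (65%) and in 8.61% of genes. Within 50 bases of the start site, a CHR was found for 25 of 40 members (62.5%) and 6.12% of genes. The searched letters may overlap, and a match is a description of the sequence and not of binding.

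The 5 promoters below are written 5′ to 3′ on the strand of the gene, with CHR and CCAAT letters of either strand in capitals. Cks2, Cdca8 and Ube2c are the most abundant members of their role groups in WT CB, and Top2a and Cenpa were added after their values were seen because their levels parted along the cycle. Cks2 (chr13:51644982-51645281, plus strand) held 0 CHR and 4 CCAAT matches. Cdca8 (chr4:124936868-124937167, minus strand) held 1 and 4. Ube2c (chr2:164769679-164769978, plus strand) held 1 and 6. Top2a (chr11:99024140-99024439, minus strand) held 4 and 6. Cenpa (chr5:30666636-30666935, plus strand) held 1 and 2.
Cks2: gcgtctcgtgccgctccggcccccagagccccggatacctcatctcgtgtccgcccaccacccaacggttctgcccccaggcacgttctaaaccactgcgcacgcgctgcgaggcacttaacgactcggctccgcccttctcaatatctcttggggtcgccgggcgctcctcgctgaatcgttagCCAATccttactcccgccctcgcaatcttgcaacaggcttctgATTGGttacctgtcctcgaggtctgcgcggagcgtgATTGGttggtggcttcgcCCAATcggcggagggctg
Cdca8: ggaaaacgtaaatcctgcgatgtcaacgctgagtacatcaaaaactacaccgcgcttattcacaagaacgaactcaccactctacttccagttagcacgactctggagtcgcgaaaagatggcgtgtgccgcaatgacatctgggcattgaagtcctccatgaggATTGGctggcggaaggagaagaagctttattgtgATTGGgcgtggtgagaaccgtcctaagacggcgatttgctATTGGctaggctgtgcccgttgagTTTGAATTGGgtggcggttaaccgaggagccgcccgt
Ube2c: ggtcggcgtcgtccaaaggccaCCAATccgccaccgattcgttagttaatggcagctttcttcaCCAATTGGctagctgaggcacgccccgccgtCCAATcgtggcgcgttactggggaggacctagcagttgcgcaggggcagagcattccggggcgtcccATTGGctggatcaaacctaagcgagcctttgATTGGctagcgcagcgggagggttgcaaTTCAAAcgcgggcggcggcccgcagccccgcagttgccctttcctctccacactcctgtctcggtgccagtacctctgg
Top2a: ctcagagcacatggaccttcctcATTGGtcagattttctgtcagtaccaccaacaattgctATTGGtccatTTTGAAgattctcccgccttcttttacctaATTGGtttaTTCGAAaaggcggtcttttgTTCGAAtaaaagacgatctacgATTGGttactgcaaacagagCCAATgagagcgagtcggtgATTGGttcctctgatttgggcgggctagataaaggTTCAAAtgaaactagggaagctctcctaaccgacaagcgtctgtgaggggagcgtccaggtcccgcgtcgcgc
Cenpa: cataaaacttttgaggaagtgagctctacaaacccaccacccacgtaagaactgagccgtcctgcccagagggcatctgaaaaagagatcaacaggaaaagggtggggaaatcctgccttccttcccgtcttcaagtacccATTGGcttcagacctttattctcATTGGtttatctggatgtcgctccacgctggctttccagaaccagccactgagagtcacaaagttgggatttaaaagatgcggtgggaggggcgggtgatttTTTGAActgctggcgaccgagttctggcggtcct

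The libraries held 8071 to 12852 barcodes and 33270825 to 39803865 UMIs (unique molecular identifiers, each standing for 1 captured molecule). The deposited annotation named 9804 GC B cells, which were 1227, 2041, 2583 and 3953 for WT, C, K and CK, and pairs of libraries shared 17 to 31 barcode sequences. In annotated GC B cells, Crebbp stood at 68.4 CPM (UMIs of a gene per 1000000 UMIs of the same cells) in WT and 43.0, 38.6 and 38.0 in C, K and CK. Kmt2d stood at 18.5, 21.3, 9.85 and 15.1 CPM in the same order. Counts taken at the 3' end do not read the floxed exons, so these values are no check of the genotype. The K library stood apart in each cell set examined, with lower values for long transcripts, which is described with its values further on. The annotation ended below 2500 genes per cell, a limit that only 2 annotated cells reached in the matrices, while 2734 unannotated cells above it were GC B-like. Those 2734 cells had at least 3 of 7 GC markers, at least 3 of 4 B cell markers, at most 1 of 6 T cell markers and under 8% mitochondrial UMIs. T-like cells, numbering 1252 to 2784 per library, were present in the sorted cells and served with resting B-like cells as a background. Their counts hold their own transcripts as well as free RNA. Smc4, for example, had a mean of 338 CPM in T-like cells and 81.0 CPM in resting B-like cells.

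Among annotated GC B cells the members were highest in CB. Leaving out recycling cells, of which a library held 8 to 49, CB had the highest level for 41 of 47 genes in WT and 45, 45 and 47 in C, K and CK, and the other genes were highest in early CB. The subtype with the highest level is not counted over all genes here. The members together made up 1.37% of all UMIs of CB in WT and 1.496%, 1.37% and 1.60% in C, K and CK. They made up 0.201% to 0.298% in cells in transition from CB to CC, 0.100% to 0.116% in CC and 0.0712% to 0.103% in prememory cells. T-like cells held 0.0950% to 0.133% and resting B-like cells 0.0636% to 0.0926%, with the highest value of both in CK. In each library CC lay above resting B-like cells. Against T-like cells of the same library, CC held 0.100% and 0.0994% in WT, 0.104% and 0.103% in C, 0.106% and 0.0950% in K, where the intervals did not overlap, and 0.116% and 0.133% in CK, where CC was the lower. These sums include Smc4, with a mean of 338 CPM in T-like cells and 124 CPM in CC, so they do not stand for each member. The subtypes were drawn by the authors from the same cells and genes, and differences between them are therefore a description. All CPM values are scaled without regard to gene length, since each molecule is counted once at its 3' end.

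**Figure D1:**
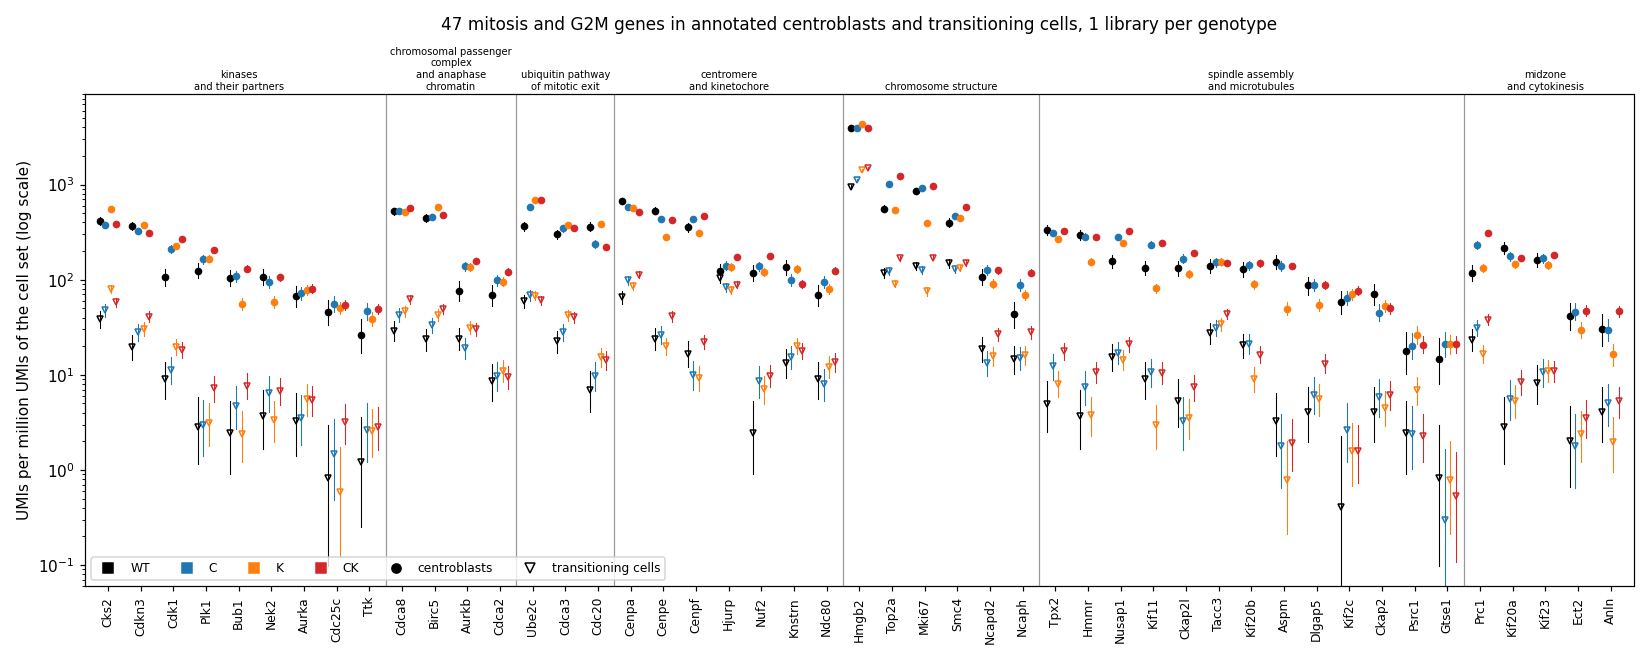
Level of each of the 47 genes in annotated CB (filled circles) and transitioning cells (open triangles) in the 4 libraries, in CPM on a log scale, grouped by role, with exact Poisson 95% intervals (the longest are clipped at the lower axis). Circles lie above triangles for every gene, with the smallest gap at Hjurp and the largest at Aspm.

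Between CB and transitioning cells, all 47 genes were at least 1.5-fold lower in the latter when the 4 libraries were summed, against 9.86% of 10687 genes, and 0 were higher, against 7.88%. The median log2 ratio over members was -3.48 and that over all genes 0.02. The size of this drop varied widely between genes. Aspm, a spindle pole protein (chromosome 1, 139454772 to 139494091, GRCm38), stood at 154, 139, 49.7 and 141 CPM in CB of WT, C, K and CK and at 3.26, 1.77, 0.788 and 1.93 CPM in transitioning cells. Its log2 ratio was -6.02 (-6.60 to -5.49), the steepest of the 47 genes. Kif2c, a microtubule-depolymerizing kinesin of the centromere (-5.45), Plk1, the polo-like kinase of mitotic entry and exit (-5.34), Hmmr, a spindle protein (-5.14), and Gtse1, a microtubule-binding protein of G2 and S phase (-5.09), followed on the log2 scale. Gtse1 and Kif2c rested on 1 to 9 UMIs in the transitioning cells of a library.

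At the other end, Hjurp, the chaperone that deposits the centromeric histone Cenpa (chromosome 1, 88262471 to 88277633), stood at 123, 141, 136 and 172 CPM in CB and at 104, 83.2, 78.2 and 88.8 CPM in transitioning cells. Its log2 ratio was -0.80 (-0.90 to -0.70). Its levels in CC were 65.1, 64.8, 47.9 and 56.9 CPM, above its 39.7 to 44.2 CPM in T-like cells. Hmgb2, a chromatin protein of the high mobility group (chromosome 8, 57511907 to 57515999), was the most abundant member in every library, with 3968, 3954, 4334 and 3965 CPM in CB and 940.5, 1120, 1430 and 1492 CPM in transitioning cells. Its log2 ratio was -1.63 (-1.66 to -1.61). Smc4, the core subunit of both condensins (-1.85), Tacc3, a spindle stabilizing protein (-2.08), and Ncaph, a subunit of condensin I (-2.20), came next. Smc4 is not a marker of dividing B cells alone, as T-like cells held 291 to 377 CPM of it.

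By role, the kinases and their partners were led in WT CB by Cks2, a small subunit that binds Cdk1, with 419, 377, 559 and 386 CPM in WT, C, K and CK. In transitioning cells Cks2 stood at 38.7, 47.8, 80.8 and 58.3 CPM, with K highest in both subtypes. Cdca8 (borealin) led the chromosomal passenger complex with 525, 528, 518 and 570 CPM in CB. In transitioning cells Cdca8 stood at 29.0, 42.5, 46.7 and 62.5 CPM, lowest in WT and highest in CK. Ube2c, the ubiquitin-conjugating enzyme of the anaphase-promoting complex, stood at 366, 585, 692 and 693 CPM in CB, and WT was below the other libraries. Cenpa, the histone H3 variant of centromeres, stood at 671, 588, 570 and 518 CPM, in the opposite order, with WT highest and CK lowest. Its levels in CC, 49.4 to 56.9 CPM, lay below those of resting B-like cells, 87.2 to 106 CPM.

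Tpx2, which activates Aurka on spindle microtubules, led the spindle group with 334, 310, 269 and 324 CPM in CB and 4.89, 12.4, 8.08 and 17.7 CPM in transitioning cells. Kif20a, a kinesin of the central spindle, led the midzone and cytokinesis group with 217, 176, 146 and 169 CPM in CB and 2.86, 5.61, 5.32 and 8.42 CPM in transitioning cells. Both were lowest in WT among transitioning cells, whereas in CB the WT value was the highest of the 4 for both. The least abundant member in CB of WT was Gtse1, with 14.5, 21.2, 21.03 and 21.02 CPM over the libraries, followed by Psrc1, a spindle protein, with 17.7, 20.2, 26.4 and 20.8 CPM.

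Early CB and CB differed in which members they held. When the 4 libraries were summed, 38 of 47 genes were at least 1.5-fold lower in early CB than in CB, against 14.0% of 10027 genes, and 0 were higher, against 10.3%. The log2 ratio of early CB over CB was -3.37 for Cenpf, a kinetochore protein, -3.33 for Ube2c, -3.09 for Cdc20, the activator of the anaphase-promoting complex, -2.94 for Aspm and -2.93 for Cdkn3, a phosphatase that acts on Cdk1. These were the 5 lowest values. The 5 values nearest to 0 were 0.01 for Ncaph, -0.04 for Top2a, the DNA topoisomerase of dividing cells, -0.18 for Aurkb, the kinase of the passenger complex, -0.20 for Hjurp and -0.35 for Smc4. These sums weight the libraries unequally, as CK gave 342 of the 680 early CB. In WT alone, 6 members were highest in early CB and 41 in CB, and the ratio was 1.22 for Ncaph, 0.79 for Top2a and 0.63 for Aurkb. Members of 1 role did not move alike, as Cdk1 had -0.47 and Cdkn3 -2.93 among the kinases and their partners, and Ncapd2, a further condensin subunit, had -0.74 and Ncaph 0.01 in the chromosome structure group. Top2a (chromosome 11, 98992943 to 99024189) stood at 961, 1160, 608 and 990 CPM in early CB and at 557, 1015, 536 and 1242 CPM in CB, and was the higher in early CB in WT, C and K but not in CK. Cenpa stood at 66.0 to 102 CPM in early CB, below its CB level in every library.

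A list of 30 genes of DNA replication and S phase, kept apart from the members, was highest in early CB for 29 genes on the mean over libraries, whereas 45 of 47 members were highest in CB. Of 15 cyclins and regulators of cyclin-dependent kinases, 7 were highest in early CB and 5 in CB. Of 16 genes of the spindle checkpoint and the anaphase-promoting complex, 5 and 8 were, and of 16 other kinetochore and centromere subunits, 7 and 8. Of 10 other condensin and cohesin subunits, 8 were highest in early CB, and of 12 regulators of G2/M transcription, 7 in early CB and 5 in CB. The deposited G2M and S module scores (the mean level of listed genes relative to control genes, lists that may include members) placed the subtypes likewise. Median G2M scores were 0.39, 0.43, 0.39 and 0.49 in CB of WT, C, K and CK and 0.02 to 0.10 for early CB, while median S scores of early CB were 0.49 to 0.56.

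Along the deposited pseudotime, which runs from CB through CC to prememory cells, every member was highest in the first of 5 bins on the mean over libraries. The like count over all genes is not given here. A bin is defined by the place of a cell among the WT cells, in steps of 20% of WT cells. The members made up 0.949% of UMIs in the first bin in WT and 1.07%, 0.972% and 1.13% in C, K and CK, and 0.319%, 0.349%, 0.368% and 0.399% in the second. In the last bin they made up 0.0817%, 0.0842%, 0.0857% and 0.103%. In each bin the CK value lay above that of WT beyond counting error. The same was so of T-like cells, with 0.0994% in WT and 0.133% in CK, and of resting B-like cells, with 0.0746% and 0.0926%. The bins hold annotated cells only, without the cells above the gene limit. The first bin held 38 early CB and 111 CB among its 246 cells in WT, and 339 and 777 among 1623 cells in CK, so its make-up was not the same in each library.

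The genes left at different points of this course. Between the first and second bins the log2 ratio was -3.17 for Ttk, the spindle checkpoint kinase, -3.13 for Plk1 and -3.12 for Anln, a scaffold of the cytokinetic ring. It was -0.74 for Hjurp, -0.85 for Cenpa and -0.88 for Knstrn, a protein of the spindle and kinetochore. Hmgb2 stood at 2860, 3071, 3356 and 3132 CPM in the first bin of WT, C, K and CK, at 1408, 1501, 1891 and 1829 CPM in the second and at 557, 791, 977 and 994 CPM in the third. In the third bin the 4 intervals of Hmgb2 left WT below C and C below both K and CK.

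**Figure D2:**
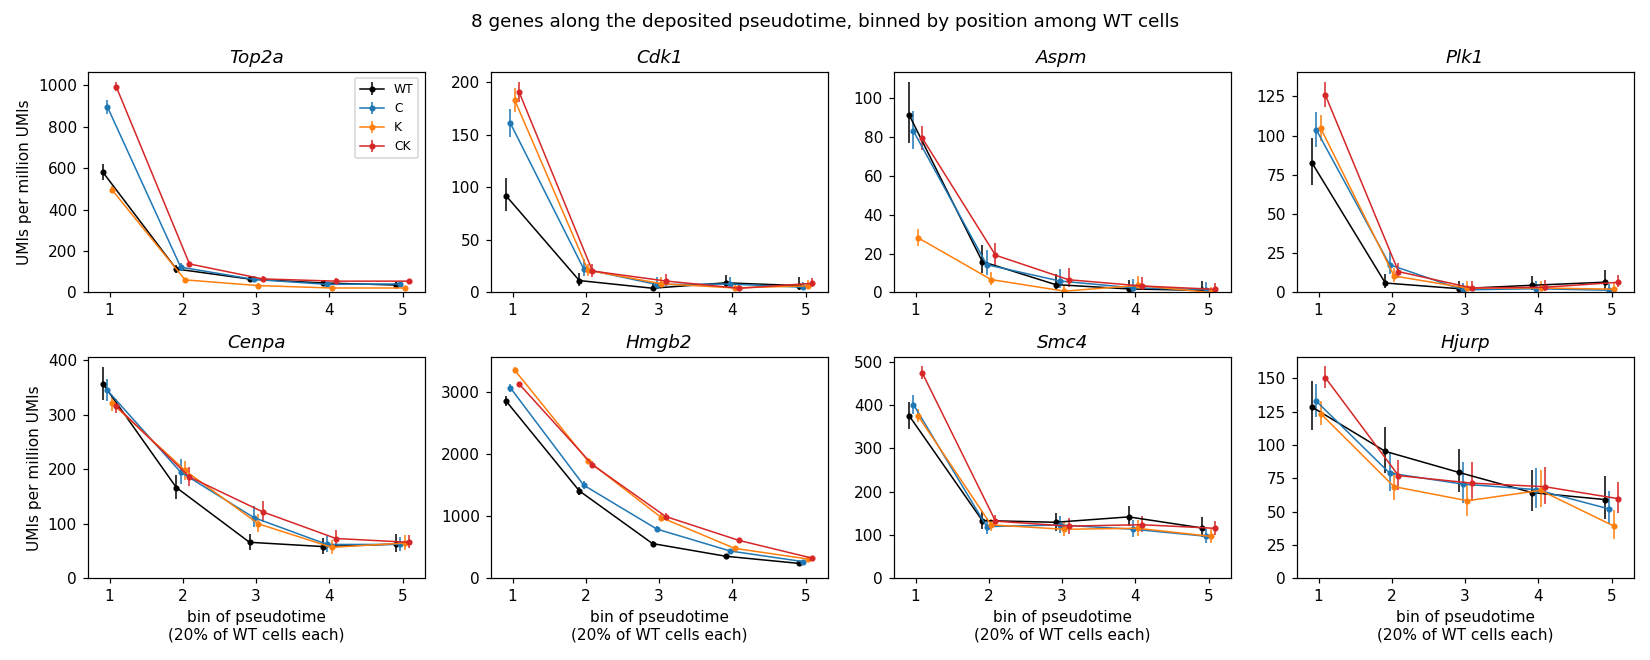
Level of 8 members in CPM (linear axes from 0) in 5 bins of pseudotime in the 4 libraries, with exact Poisson 95% intervals. A bin spans 20% of WT cells by position. Top2a, Cdk1, Aspm and Plk1 drop steeply after the first bin, whereas Cenpa, Hmgb2, Smc4 and Hjurp keep a larger part of their level in the next bin.

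Single cells were compared after each was thinned to 2000 UMIs, which left out 44 of 1227 annotated cells in WT, 106 of 2041 in C, 88 of 2583 in K and 330 of 3953 in CK. Cells with UMIs of at least 5 members made up 21.7% of WT annotated GC B cells (19.4 to 24.2%), 30.6% of C cells (28.6 to 32.8%), 35.7% of K cells (33.8 to 37.6%) and 44.0% of CK cells (42.4 to 45.7%). Without thinning the values were 46.9%, 46.4%, 54.7% and 54.4%, at median depths of 4931, 4053, 4759 and 3653 UMIs, so that the order of the libraries changed with depth. Within CB the thinned share was 89.7%, 94.1%, 93.8% and 94.7%. In transitioning cells it was 11.6%, 13.7%, 13.2% and 22.9%, with CK above the intervals of the other libraries. The background share was 0.717% to 2.63% in T-like cells, whose median depths were 1967 to 3234 UMIs, from which thinning left out 1451 of 2784 cells in CK, and at most 1.05% in resting B-like cells, and the 1.88% to 3.23% of CC were near it.

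The median CB carried UMIs of 13 members in WT and 14, 12 and 15 in C, K and CK after thinning, out of 47. The share of CB with a UMI of a given gene ran from 99.4% to 100% over libraries for Hmgb2, from 44.8% to 66.9% for Top2a, from 19.5% to 26.9% for Hjurp and from 16.1% to 28.0% for Plk1. In T-like cells the same shares were 32.9% to 40.6%, 2.07% to 6.75%, 7.28% to 8.38% and 0.342% to 1.43%. Hmgb2 was therefore seen in T-like cells well beyond the other 3 genes.

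The question put by the design is whether heterozygous loss of Crebbp, of Kmt2d or of both changed these genes in GC B cells. Over all annotated GC B cells, most members were higher in each mutant library than in WT. A gene was counted when both libraries together held at least 20 of its UMIs. On this basis 25 of 47 members were at least 1.5-fold higher in C, against 4.95% of 10152 genes, 25 in K, against 5.07% of 10274 genes, and 42 in CK, against 8.65% of 10531 genes. The number at least 1.5-fold lower was 0 in C (3.94% of genes), 1 in K (23.6% of genes) and 0 in CK (9.03% of genes). The median log2 ratio over members was 0.61, 0.64 and 1.07 for C, K and CK, and that over all genes was 0.01, -0.16 and -0.03. All 47 members were above WT in C and in CK and 37 of 47 in K, and Aspm was the 1 gene at least 1.5-fold lower in K. Annotated CB numbered 183, 421, 645 and 1013 for WT, C, K and CK, and early CB 38, 110, 190 and 342, so the make-up of the annotated cells moved together with these ratios.

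Within CB the differences were smaller and went both ways. In C, 9 members were at least 1.5-fold higher (8.79% of 7872 genes) and 2 lower (8.18%). In K, 5 were higher (7.45% of 8298 genes) and 9 lower (23.2%). With the all-gene median taken off each ratio, 9 were higher in K (11% of genes) and 7 lower (17%). In CK, 13 were higher (11.5% of 8792 genes) and 2 lower (12.0%). The median log2 ratio of the members was 0.15, 0.02 and 0.24, and that of all genes -0.02, -0.15 and -0.04. Counting intervals lay above 0 for 21 of 47 members in CK and below 0 for 7, without a like count over all genes to set them against.

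The members furthest above WT in CB of CK were Ncaph, Prc1, Cdk1, Top2a and Nusap1. Ncaph stood at 43.6, 88.5, 69.4 and 118 CPM for WT, C, K and CK, a log2 ratio of CK over WT of 1.44 (0.98 to 1.92) that rested on 42 UMIs in WT. Prc1, which bundles microtubules of the central spindle (chromosome 7, 80294450 to 80316259), stood at 118, 232, 133 and 311 CPM, a ratio of 1.39 (1.12 to 1.68). Cdk1, the kinase of mitotic entry (chromosome 10, 69335146 to 69352938), stood at 106, 209, 226 and 266 CPM, a ratio of 1.33 (1.03 to 1.63). Top2a had a ratio of 1.16 (1.03 to 1.29). Nusap1, a microtubule-bundling protein, stood at 156, 281, 242 and 327 CPM, a ratio of 1.07 (0.83 to 1.32). For each of these genes except Top2a, the WT value was the lowest of the 4 libraries, and for Top2a the K value was.

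The members furthest below WT in CB of CK were Cdc20, Knstrn, Ckap2, Cenpa and Kif20a. Cdc20 (chromosome 4, 118432901 to 118437352) stood at 361, 238, 386 and 221 CPM for WT, C, K and CK, a log2 ratio of CK over WT of -0.71 (-0.88 to -0.53). Knstrn stood at 135, 99.6, 130 and 89.4 CPM, a ratio of -0.60 (-0.88 to -0.30). Ckap2, a microtubule-binding protein, stood at 70.7, 45.2, 52.9 and 49.9 CPM, a ratio of -0.50 (-0.90 to -0.09). Cenpa had a ratio of -0.37 (-0.50 to -0.25) and Kif20a one of -0.36 (-0.58 to -0.13). For Cdc20 and Knstrn, WT and K were the high libraries and C and CK the low ones.

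The ratios of C and K use the same WT library as those of CK and are given side by side with them. Ncaph had a log2 ratio of C over WT of 1.02 (0.53 to 1.54), Cdk1 0.98 (0.67 to 1.31) and Prc1 0.97 (0.67 to 1.28), while Ckap2 had -0.64 (-1.11 to -0.17), Cdc20 -0.60 (-0.80 to -0.40) and Knstrn -0.44 (-0.76 to -0.11). In K the highest were Cdk1 with 1.09 (0.79 to 1.41), Ube2c with 0.92 (0.76 to 1.08) and Aurkb with 0.82 (0.47 to 1.19). The lowest in K were Aspm with -1.63 (-1.95 to -1.30), Mki67 with -1.13 and Hmmr with -0.93 (-1.14 to -0.72). Mki67, the proliferation antigen that coats mitotic chromosomes, stood at 853, 924, 391 and 961 CPM in CB of WT, C, K and CK.

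In the smaller early CB the counts of WT, from 38 cells, left 36 to 44 members with enough UMIs. There 9 members were at least 1.5-fold higher in C (13.4% of 4843 genes), 7 in K (13.4% of 5775 genes) and 13 in CK (16.7% of 6822 genes), and 1 (9.64%), 10 (21.8%) and 1 (13.0%) were lower. In transitioning cells 8 of 39 members were higher in C (5.10% of 8805 genes), 13 of 40 in K (5.13% of 8999 genes) and 26 of 42 in CK (7.97% of 9261 genes). The numbers lower were 2 (5.27%), 5 (22.7%) and 0 (7.48%). The median log2 ratio of members in transitioning cells was 0.25, 0.34 and 0.69 for C, K and CK. Nuf2, a subunit of the Ndc80 complex of kinetochores, was the highest of them in CK, with 2.45, 8.56, 7.09 and 9.83 CPM and a log2 ratio of 2.01, from 6 UMIs in WT. In CC, 3 of 27 members were higher in C (5.71% of 8161 genes), 9 of 29 in K (4.60% of 8302 genes) and 8 of 35 in CK (7.17% of 8530 genes). Those lower were 3 (5.82%), 3 (22.6%) and 2 (5.66%). The summed level of the members in CC was near that of T-like cells, but single members differed. On the mean over libraries, Mki67 stood at 48.2 CPM in CC and 16.1 CPM in T-like cells, and Smc4 at 124 and 338 CPM.

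The annotated cells held the smaller part of the members' UMIs in WT. Of all UMIs of the 47 genes in the WT library, 12.3% lay in annotated GC B cells and 62.9% in GC B-like cells above the limit of 2500 genes. The annotated share was 27.0%, 34.0% and 43.9% for C, K and CK, and that above the limit was 52.6%, 50.9% and 32.7%. Cells above the limit that were not GC B-like held 13.6%, 9.83%, 7.78% and 10.9%. Counted within annotated and above-limit GC B-like cells together, 83.6% of the members' UMIs lay above the limit in WT and 66.1%, 59.9% and 42.7% in C, K and CK. The cells above the limit were 39.4% of these cells for WT (37.3 to 41.6%), 23.2% for C (21.6 to 24.9%), 22.2% for K (20.8 to 23.7%) and 12.8% for CK (11.8 to 13.8%), and the share of the UMIs of all genes was 61.9%, 45.3%, 42.8% and 29.0%.

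This held gene by gene. The share of a member's UMIs above the limit ran from 72.3% to 91.3% over the 47 genes in WT, from 56.3% to 78.0% in C, from 50.8% to 72.9% in K and from 34.4% to 54.7% in CK. In WT the lowest was that of Hjurp and the highest that of Ttk. The cells above the limit hold more UMIs each, so the shares are to be read against those of the UMIs of all genes, 61.9%, 45.3%, 42.8% and 29.0%, which each of the 47 members exceeded in its library. The WT share of every gene was above its share in CK. Scrublet called 6.02% of the above-limit GC B-like cells doublets in WT and 8.58%, 4.20% and 5.52% in C, K and CK, against 1.63%, 4.02%, 1.39% and 2.20% of annotated cells. In the cells above the limit, 6 of 6 T cell markers summed to 52.1 to 63.6 CPM and 3 myeloid markers to at most 0.316 CPM. Annotated GC B cells held 96.2 to 120 CPM of the T cell markers. The cells above the limit were chosen with at most 1 of these markers, so their T cell value is no measure of doublets. The 4 plasma cell markers, among them Jchain and Xbp1, summed to 1378 to 1534 CPM there and to 1109 to 1339 CPM in annotated cells, and 6 resting B cell markers to 216, 193, 117 and 122 CPM there and to 473, 425, 227 and 246 CPM in annotated cells of WT, C, K and CK. The resting B cell markers were thus lower in K and CK than in WT and C in both sets, and the part of both lists in the results was not tested.

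**Figure D3:**
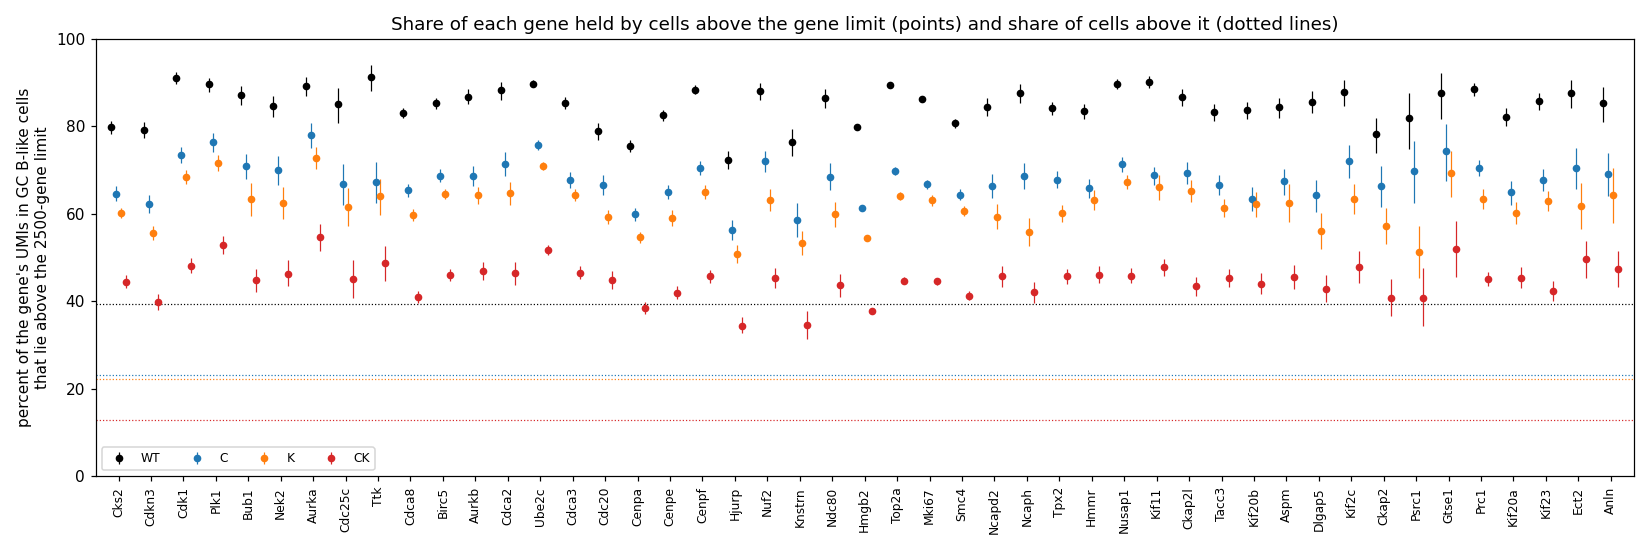
Percent of each gene's UMIs in GC B-like cells that lay above 2500 genes per cell, for 47 genes in the 4 libraries (points, with exact binomial 95% intervals), and percent of the cells that did (dotted lines in the colors of the libraries). WT points lie between 72.3% and 91.3% and CK points between 34.4% and 54.7%, against 61.9% and 29.0% of the UMIs of all genes.

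Per UMI, cells above the limit were richer in the members than annotated cells. With the libraries summed, 46 of 47 members (all but Hjurp) were at least 1.5-fold higher there, against 5.99% of 11877 genes, and 0 lower, against 10.8%, with a median log2 ratio of 1.17 against -0.08 over all genes. The highest were Aurka, the centrosomal mitotic kinase, with 1.78 (1.68 to 1.88), Plk1 with 1.62 (1.55 to 1.69), Ube2c with 1.62 (1.58 to 1.65), Gtse1 with 1.54 (1.33 to 1.75) and Cdk1 with 1.44. The lowest were Hjurp with 0.49 (0.43 to 0.55), Knstrn with 0.65 (0.56 to 0.75), Cenpa with 0.69 (0.65 to 0.73), Hmgb2 with 0.74 (0.72 to 0.75) and Cdkn3 with 0.79 (0.73 to 0.84). These sums weight the libraries unequally, and the ratios were larger in WT, with a median over members of 1.85, against 1.35, 1.16 and 1.02 in C, K and CK. In WT the highest were Ttk with 2.70, Cdk1 with 2.66 and Kif11 with 2.50, and Aurka came in place 8 with 2.36, whereas Aurka was the highest in C, K and CK with 2.09, 1.84 and 1.56. Aurka stood at 71.8, 87.3, 96.5 and 89.8 CPM above the limit and at 14.0, 20.5, 26.9 and 30.4 CPM in annotated cells of WT, C, K and CK.

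Cells above the limit were also matched to subtypes by their nearest annotated cells, without the members and the pathway genes. This matching gave an annotated CB its own label in 67.2% of cases and a transitioning cell in 91.2%, but an early CB in 16.5%. It was therefore not used for early CB, and cells like early CB may lie in the sets named for other subtypes. Cells above the limit nearest to transitioning cells numbered 347, 210, 320 and 173 for WT, C, K and CK. The members made up 0.840%, 1.11%, 1.02% and 1.07% of their UMIs, against 0.201% to 0.298% in annotated transitioning cells and 1.37% to 1.60% in annotated CB. Some of these cells may be CB or early CB under another label, and the part of such cells was not tested. Cells above the limit nearest to CB numbered 332, 299, 299 and 327 for WT, C, K and CK. Compared with annotated CB, they were at least 1.5-fold higher for 2 members (3.48% of 10525 genes), Aurkb with a log2 ratio of 0.68 and Top2a with 0.59, and at least 1.5-fold lower for 4 members (8.41%), Knstrn with -0.88, Cdkn3 with -0.70, Cenpa with -0.65 and Cdc20 with -0.63. This sum hides a difference between the libraries. In WT alone, 16 members were higher (12.3% of 8654 genes) and 5 lower (14.9%), with a median of 0.28 over members and the highest values for Ncaph with 1.63, Top2a with 1.55 and Aurkb with 1.48. In C alone 5 were higher (6.58% of 8723 genes) and 5 lower (11.7%), in K alone 5 (4.40% of 8831 genes) and 4 (10.4%), and in CK alone 1 (4.10% of 9197 genes) and 3 (8.77%). The medians over members in C, K and CK were 0.0024, 0.12 and -0.07. In annotated CB, the log2 ratio of CK over WT was 1.03 for Aurkb, 1.16 for Top2a, -0.60 for Knstrn and -0.71 for Cdc20, and these ratios share the annotated CB with those above.

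When the cells above the limit were added to the annotated cells, the differences between CK or C and WT became small. In C, 0 members were at least 1.5-fold higher (2.73% of 10939 genes) and 0 lower (2.93%), and in CK 0 were higher (3.58% of 11119 genes) and 0 lower (5.59%). The log2 ratios of the 47 genes ran from -0.30 to 0.29 in C, with a median of 0.03, and from -0.27 to 0.42 in CK, with a median of 0.08. The highest in CK was Prc1 with 0.42 (0.34 to 0.50), where annotated cells alone gave 1.78 (1.58 to 1.98). Cdk1 had 0.26 (0.18 to 0.34) against 1.91 (1.68 to 2.14), and Top2a had 0.07 (0.04 to 0.11) against 1.55 (1.47 to 1.64). Counting intervals lay above 0 for 24 of 47 members in CK and below 0 for 6. No such count over all genes is given here, so these numbers have no background.

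The same held within CB when cells above the limit nearest to CB were added, a set that may also hold cells like early CB. There 0 members were at least 1.5-fold higher in C (3.49% of 9601 genes) and 0 in CK (3.96% of 9810 genes), and 0 were lower in either (4.25% and 5.17%). In K, 2 members were higher (2.74% of 9668 genes) and 15 lower (21.3%). Within the cells above the limit alone, 0 members were higher in C (2.36% of 10136 genes), 4 in K (2.11% of 10166 genes) and 1 in CK (3.29% of 10051 genes), which was Plk1 with 0.61, while 0 (4.38%), 13 (22.7%) and 0 (8.62%) were lower. There the median log2 ratio of members was 0.12, -0.03 and 0.23 for C, K and CK. The share of cells with at least 5 members at 2000 UMIs, over annotated and above-limit cells, was 43.3%, 44.7%, 46.3% and 50.6% for WT, C, K and CK.

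**Figure D4:**
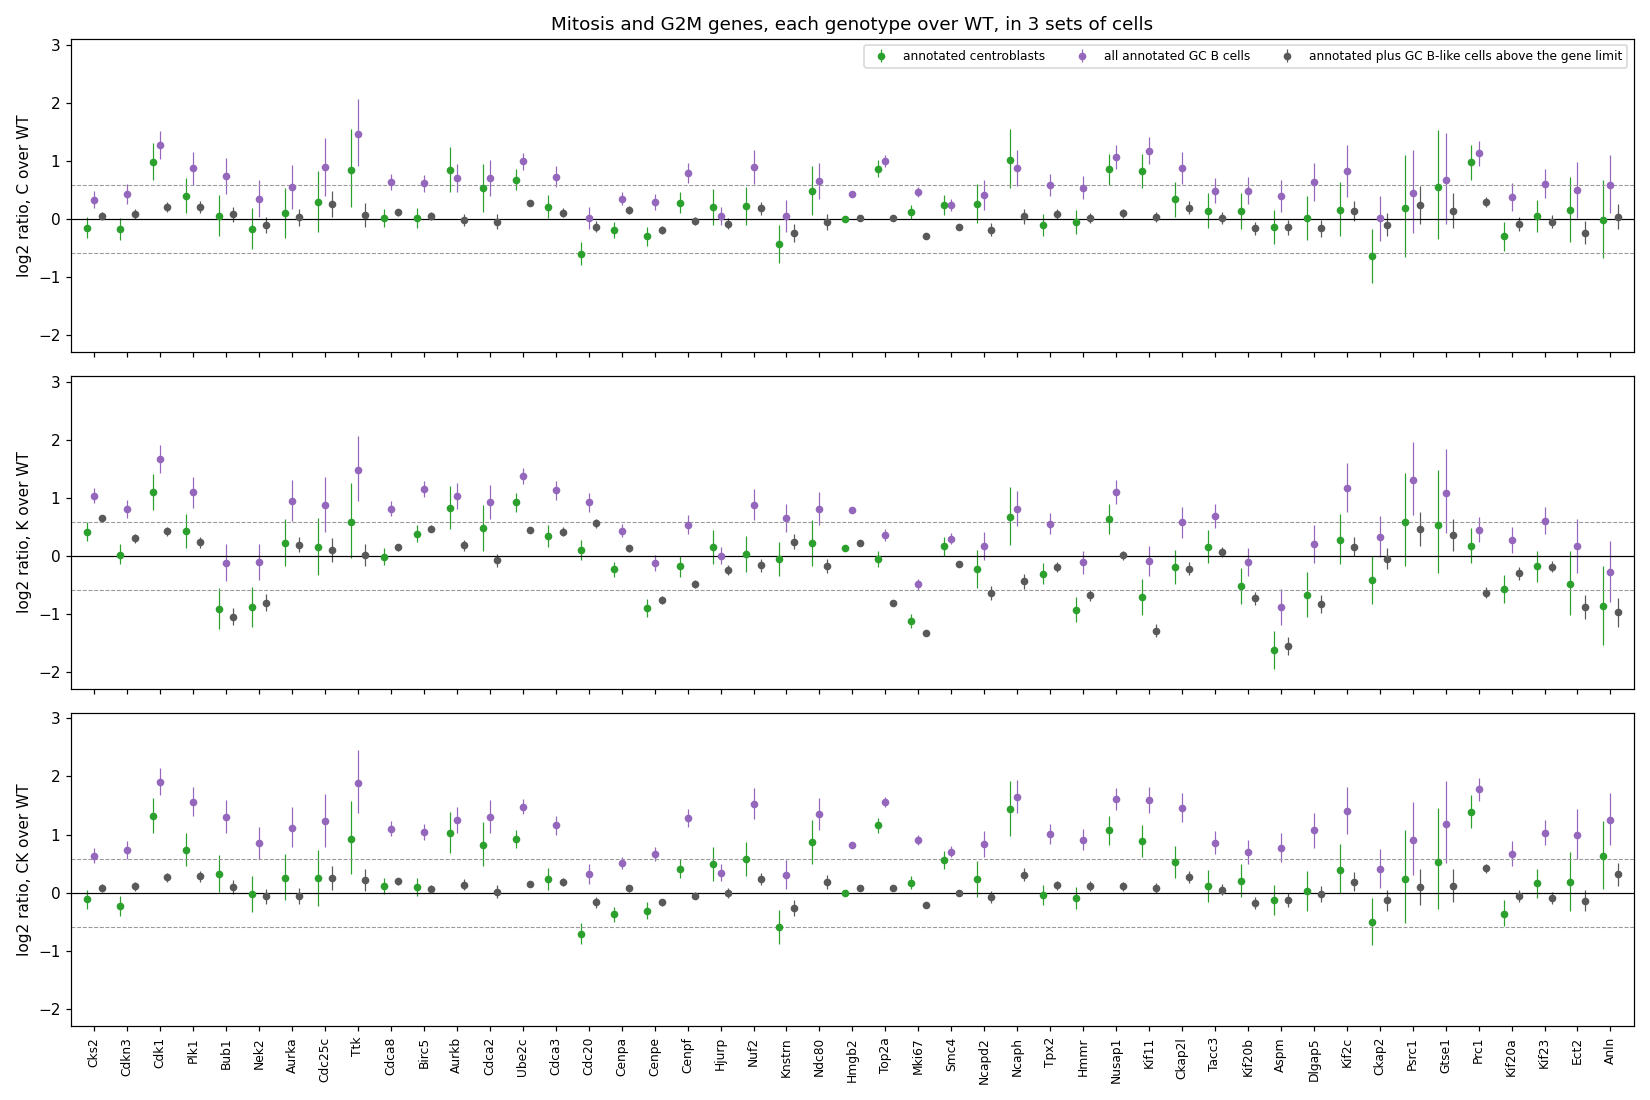
Log2 ratios of C, K and CK over WT for the 47 genes in annotated CB (green), all annotated GC B cells (purple) and annotated plus above-limit GC B-like cells (grey), with exact conditional 95% intervals. Dashed lines mark 1.5-fold. In the C and CK panels every grey point lies between the dashed lines, whereas 42 of 47 purple points lie above the upper line in CK. In the K panel 14 grey points lie below the lower line.

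Members at least 1.5-fold lower than in WT were most numerous in K when the cells above the limit were included. Over annotated and above-limit cells, 14 members were at least 1.5-fold lower in K (21.9% of 11021 genes) and 1 was higher (2.19%), with a median of -0.15 over members and -0.16 over all genes. The lowest were Aspm with -1.56 (-1.71 to -1.40), Mki67 with -1.34 (-1.38 to -1.29), Kif11, the kinesin of spindle bipolarity, with -1.29, and Bub1, a kinase of the spindle checkpoint, with -1.05. Cks2, with 0.64, was the 1 member higher. The share of members at least 1.5-fold lower is to be read against the 21.9% of all genes.

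These ratios moved with transcript length. Across the 47 genes the Spearman correlation of the log2 ratio of K over WT with the length of the longest annotated transcript was -0.73, and it was -0.48 for C and -0.33 for CK, with all genes of a ratio sharing both libraries. The 16 members with transcripts over 4000 bases had a median log2 ratio of K over WT of -0.75, and 10 of them were at least 1.5-fold lower. The 6 members under 2000 bases had a median of 0.36, and 0 of them were lower. Aspm has a longest transcript of 9867 bases, Mki67 one of 10061, Cks2 one of 692. Over all genes with at least 100 UMIs the correlation in K was -0.57 in these cells, -0.60 in T-like cells and -0.59 in resting B-like cells, cells in which Cγ1-cre is not expected to act. In C and CK it lay between -0.25 and 0.01 in the cell sets examined. The part of length in the K values was not tested.

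**Figure D5:**
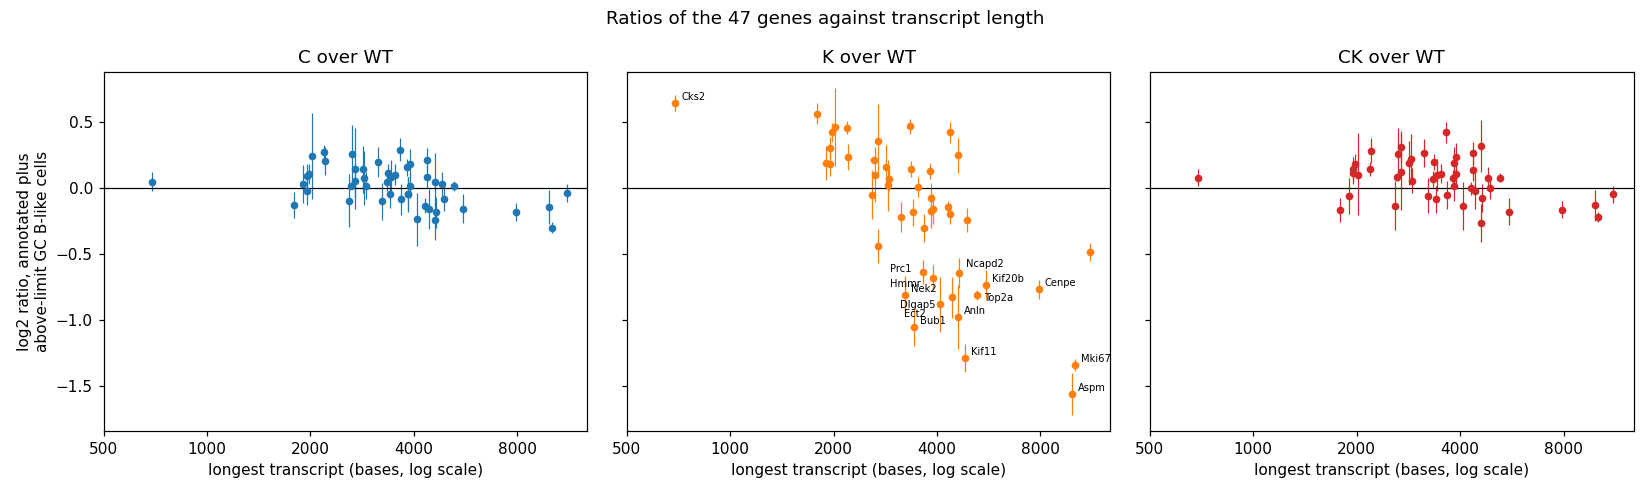
Log2 ratio of C, K and CK over WT in annotated plus above-limit GC B-like cells against the length of the longest annotated transcript (log axis) for the 47 genes, with exact conditional 95% intervals. Genes at least 1.5-fold from WT are named. In K the long transcripts of Aspm and Mki67 have the lowest values and Cks2, the shortest, the highest.

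Lists of other cell cycle genes also held more higher than lower genes in annotated CB of CK. Over all 8792 genes tested there, 11.5% were at least 1.5-fold higher and 12.0% lower. Of these lists, 22 of 30 genes of DNA replication and S phase were at least 1.5-fold higher than in WT and 0 lower, with a median log2 ratio of 0.80 and the highest value at Tipin, a replication fork protein, with 1.36. Of 16 other kinetochore and centromere subunits, 8 were higher and 0 lower, with the highest value at Spc25, a subunit of the Ndc80 complex, with 1.23. Of 16 genes of the spindle checkpoint and the anaphase-promoting complex, 3 were higher, a share near that of all genes, and 0 lower, led by Fbxo5, an inhibitor of that complex, with 1.22. Of 10 other condensin and cohesin subunits, 5 were higher, led by Ncapg2, a subunit of condensin II, with 1.39. Of 12 regulators of G2/M transcription, 5 were higher, led by E2f8, a repressor of the E2F family, with 1.75, and of the 13 measured cyclins and regulators of cyclin-dependent kinases 5 were, led by Ccne1 with 1.21. The median of the members, 0.24, was thus below that of the S-phase list in the same cells.

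Over annotated and above-limit cells, 0 genes of the S-phase, kinetochore, checkpoint, condensin and transcription lists were at least 1.5-fold from WT in C or CK. Among the 15 cyclins and regulators of cyclin-dependent kinases, Cdkn1a, the inhibitor p21, was higher, with 0.95 in C and 1.52 in CK, and Ccnd2, a D-type cyclin, was lower in CK, with -0.89. Cdkn1a was also higher in K, with 1.04. In K the lowest genes of their lists included Stag2, a cohesin subunit, with -1.55, Cdkn1b, the inhibitor p27, with -1.51, Cdc27, a subunit of the anaphase-promoting complex, with -1.41, and Pola1, a subunit of DNA polymerase alpha, with -1.21.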

How the data were processed

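Libraries of the Chromium Single Cell 3' kit were made by the authors from sorted B220+IgD- splenocytes, 1 mouse per genotype. The deposited matrices hold raw UMI counts per gene and barcode; the submitters' processing notes name Cell Ranger 3.0, Seurat 4.0 and mm10. The authors' cell table gives subtype names by label transfer, the percent of mitochondrial UMIs, module scores and, as a further score, a pseudotime rank made for each mutant together with WT.

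Counts were summed per library and cell set and scaled to CPM. A gene was called higher or lower from 1.5-fold, where the pair of libraries held at least 20 of its UMIs. Intervals were exact Poisson (levels), exact Clopper-Pearson (shares) and exact conditional binomial (ratios). Library totals were 33270825 to 39803865 UMIs, but the width of an interval depends on the UMIs or cells counted within the cell set. Pseudotime bins used the joint rank less the rank among cells of the same library, which leaves the place among WT cells. Labels of cells above the gene limit came from 25 neighbours in 30 components of 2000 variable genes, without immunoglobulin, mitochondrial, member and pathway genes. T-like cells had at least 3 of 6 T cell markers, and resting B-like cells at least 2 of 6 resting B cell markers. Doublets were called per library by Scrublet in scanpy 1.11.5 and were left out only as an alternative. The ratio step was tested on simulated counts, and the thinning step was checked on the counts of annotated CB. Neighbours were found with scikit-learn 1.9.0, intervals with SciPy 1.17.1 and sums with pandas 2.3.3 and NumPy 2.4.6. Coordinates and transcript lengths are those of GENCODE vM21 on GRCm38.

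The members, role groups, pathway lists and markers were chosen with earlier results of these data known. Values in every library were given for the most abundant member of each role group in WT CB and for the 5 highest and 5 lowest ratios of CK over WT in CB with at least 50 UMIs (3 and 3 for C and K). The 5 outermost members at each end were named for transitioning cells over CB and for cells above the limit over annotated cells. Pathway lists were given by counts with their outermost genes. Alternatives covered scaling, the total, the minimum count, the fold, doublets, weighting by cell, thinning, marker limits and cells above the gene limit.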

Additional observations from a re-analysis of the deposited data

How the results depend on the processing

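No paired analysis was possible because each genotype was 1 mouse and 1 library, and leaving out a replicate was not possible for the same reason. Once cells above the limit were pooled with the annotated ones, the number of members at least 1.5-fold higher than in WT was 0, 2 and 0 in CB of C, K and CK, and 0, 1 and 0 for all annotated cells. In that setting the log2 ratio in CB turned to -0.060 for Ncaph in C, -0.019 for Aurkb in K, and -0.065 for Top2a and -0.0045 for Nusap1 in CK. At a lower limit, a log2 ratio of 0.32, 14, 13 and 20 members were higher in CB of C, K and CK (19.1%, 15.3% and 21.8% of all genes) and 41 in all annotated cells of C (12.8%). At 2-fold they were 1, 1 and 6 in CB (2.87%, 2.55% and 4.71%) and 5, 12 and 27 in all annotated cells (1.61%, 1.79% and 3.91%). With each ratio taken relative to the median of all genes, K had 9 higher members in CB (11%). With the mean over cells of their CPM, C had 12 in all annotated cells (4.62%).

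Without Scrublet calls the percent of the members' UMIs above the limit was 83.4, 65.5, 59.3 and 42.3 for WT, C, K and CK. The percent of annotated cells with at least 5 members was 46.9, 46.4, 54.7 and 54.4 without thinning, 13.9, 21.3, 23.6 and 29.1 at 1000 UMIs, and 43.3, 44.7, 46.3 and 50.6 with cells above the limit. With at least 3 members it was 42.9, 53.1, 56.0 and 66.05, and with at least 10 it was 11.3, 17.9, 19.7 and 25.2. Of 132 alternative values of 22 single-gene ratios, 110 stayed within the counting interval, 18 moved beyond it and 4 changed sign. The causes were not tested. The depth of WT CB, 183 cells, limits the ratios of genes such as Ncaph, and counting intervals do not cover the spread between mice.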
